A study of Homo sapiens with 9 samples.

Results

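The messenger RNAs of 10 genes that are standard targets of the hypoxia-inducible factors (HIF) were followed across HEK293T cells treated with AGB1, dTAG47 or DMSO. The 10 genes were chosen by symbol: NDRG1, VEGFA, BNIP3, ADM, PDK1, P4HA1, EGLN1, EGLN3, CA9 and ANKRD37. All 10 occur among the 58735 genes in the count files. Of these, 9 passed the count filter that left 18319 genes for testing, and CA9 did not. HEK293T is an established line derived from human embryonic kidney and expressing the large T antigen of SV40. In all 3 groups, controls included, the cells carried 2 degron fusions, PRPS1-HA-dTAG and PRPSAP1-BromoTag, the second also carrying a V5 tag according to the sample titles. The 3 groups were AGB1 (500 nM), designed to deplete PRPSAP1 by recruiting the ubiquitin ligase receptor VHL to the BromoTag, dTAG47 (500 nM), designed to deplete PRPS1 through the receptor CRBN, and DMSO, with 24 h of compound treatment and 3 libraries per group. Whether the line is a single clone, and whether the libraries of a group are separate cultures, is not given in the sources used here, so a p-value here covers library-to-library spread that could be purely technical. AGB1 brings VHL recruitment and the intended loss of PRPSAP1 together, and in these groups the effects of both cannot be told apart. Degraders remove protein, so messenger RNA does not check whether the tagged proteins were lost.

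In cells with oxygen, prolyl hydroxylases of the EGLN family modify HIF-alpha subunits, VHL binds the hydroxylated protein, and a ligase built from VHL, elongins B and C, CUL2 and RBX1 marks it for degradation. When hydroxylation or VHL binding fails, HIF-alpha accumulates, pairs with ARNT and activates genes whose promoters or enhancers hold the hypoxia response element. A ligand that occupies VHL can in principle compete with HIF-alpha for the same pocket, so the comparison asks whether a VHL-recruiting degrader left HIF target messages at the level of the controls. HIF proteins themselves were not measured.

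The core of the hypoxia response element is ACGTG or GCGTG, and the members' promoters are shown here because that core is the sequence HIF recognises. RefSeq promoter windows (GRCh38.p14, 250 bases before to 50 bases after each gene's start) were found for 8 of the 10 genes. No window was available for NDRG1 or VEGFA. Both motifs were searched on both strands. These windows follow RefSeq's annotated starts, which can differ from the starts of the gene models in the files. ACGTG occurred in 6 of the 8 genes and in 21.4% of all 35116 windows. Either motif occurred in 7 of the 8 and in 48.4% of all windows. The exceptions were ADM, with GCGTG alone, and EGLN3, with neither in its window. PDK1 has a pair of windows, and its matches lie in the downstream one. A match is a string of letters and does not show binding. The sites below are read 5′ to 3′ on the strand that shows ACGTG, with the motif in capitals. In BNIP3 and in the first capitalised stretch of ANKRD37 the capitals extend to CACGTG, a palindrome that holds ACGTG on both strands and is also the E-box, the core bound by MYC and related factors. The positions are chr10:131982042-131982067 (minus strand) for BNIP3, chr2:172556065-172556094 (minus strand, opposite to the gene) for PDK1, chr10:73096938-73096962 (plus strand, opposite to the gene) for P4HA1, chr1:231422286-231422310 (minus strand) for EGLN1, chr9:35673900-35673924 (minus strand, opposite to the gene) for CA9 and chr4:185396676-185396705 (plus strand) for ANKRD37.
BNIP3: gcacgcgccgCACGTGccacacgcac
PDK1: cgagtggtACGTGagggACGTGgcgggcag
P4HA1: agccctcgctACGTGagctcgatca
EGLN1: gccgtggtgtACGTGcagagcgcgc
CA9: tacgggctgtACGTGcattggaaac
ANKRD37: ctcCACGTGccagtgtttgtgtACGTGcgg

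Total counts per library ranged from 27964128 to 44803380. Levels are given as CPM, counts scaled to a common depth with TMM-adjusted library sizes, and a count of 3 is worth between 0.0670 and 0.107 CPM. The labelled epithelial type rests on KRT8 (25.8 to 35.3 CPM over the 9 libraries) and KRT18 (41.8 to 60.0 CPM), whereas EPCAM (1.11 to 3.21 CPM) and CDH1 (6.25 to 9.01 CPM) were low and KRT19 had no count in 7 of 9 libraries. KRT8 was at 25.8 to 29.3 CPM with AGB1, 32.8 to 33.7 CPM with dTAG47 and 32.1 to 35.3 CPM in DMSO, a log2 difference of −0.28 between AGB1 and DMSO (SE 0.09, edgeR adjusted p = 0.366), and CDH1 was at 6.34 to 6.92 CPM with AGB1, 6.25 to 7.77 CPM with dTAG47 and 7.51 to 9.01 CPM in DMSO (−0.31 between AGB1 and DMSO, SE 0.16, edgeR adjusted p = 0.666). AGB1 libraries lay below those of DMSO for both genes, 2 of the 4 epithelial markers tested, against 6.75% of all genes tested. The other 2 lay in the opposite direction and overlapped DMSO. Between AGB1 and DMSO, KRT18 had a log2 difference of 0.06 (SE 0.09) and EPCAM of 0.14 (SE 0.32). The 8 markers of other cells (immune, endothelial, stromal and liver) summed to 25.1 to 28.8 CPM with AGB1, 29.5 to 36.0 CPM with dTAG47 and 29.2 to 34.1 CPM in DMSO, most of it COL1A1 (22.7 to 32.3 CPM), and PTPRC was at 0 in 8 of 9 libraries. The part of these marker levels in the results was not tested. Libraries differed in how the deviations of their genes followed GC content. Spearman's rho across genes was −0.00595, −0.0269 and 0.0498 in the AGB1 libraries, 0.623, −0.329 and 0.0287 in the dTAG47 libraries and −0.378, −0.281 and 0.271 in the DMSO libraries, so that dTAG47 1 was the furthest from 0 and the AGB1 libraries were all near it.

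The 10 genes spanned a wide range of levels. Per kilobase of the gene length in the files, so that genes can be compared, EGLN1 was the most abundant in DMSO at 17.7 ± 0.790 RPKM (SD, n = 3), with P4HA1 next at 16.1 ± 1.04 RPKM, and these neighbours overlapped over the libraries. BNIP3 (8.69 ± 0.377 RPKM) and NDRG1 (8.40 ± 0.610 RPKM) formed the next pair and did not differ beyond their spread. VEGFA followed at 3.01 ± 0.0639 RPKM, then PDK1 at 2.19 ± 0.256, EGLN3 at 1.84 ± 0.236 and ADM at 1.84 ± 0.486 RPKM, the last 3 within each other's spread. ANKRD37 was at 0.643 ± 0.0630 RPKM. CA9, a membrane carbonic anhydrase that is among the most tightly HIF-dependent genes known (ENSG00000107159, chr9:35673856-35681159, plus strand), had 1 count in dTAG47 1 and 0 counts in the other 8 libraries. CA9 was therefore at or below the floor of 3 counts per library in every group, and no fold change is given for it. Of its exonic bases, 38.5% are shared with ARHGEF39 on the opposite strand, so its count is uncertain.

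With AGB1, none of the 9 tested hypoxia targets passed the threshold against DMSO (adjusted p under 0.05 in edgeR's quasi-likelihood test), against a background of 0.104% of all genes called. At an unadjusted p under 0.05 there was 1 of 9, NDRG1, against 7.76% of all genes, and DESeq2 called 1 of the 8 members to which it gave an adjusted p, NDRG1, against 0.606% of the genes it tested. The median log2 fold change of the 9 was 0.04, against −0.000902 over all genes tested, with 5 positive and 4 negative, against 49.7% positive among all genes. The upper end of the 95% interval stayed below a log2 fold change of 1 for all 9, and it reached 1 for 17.3% of all genes. The median standard error was 0.0847 for the 9 and 0.131 over all genes tested, so these shares are at unlike precision. In a bulk culture, a change in the level per cell and a change in the share of cells that express a gene cannot be told apart.

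**Figure D1:**
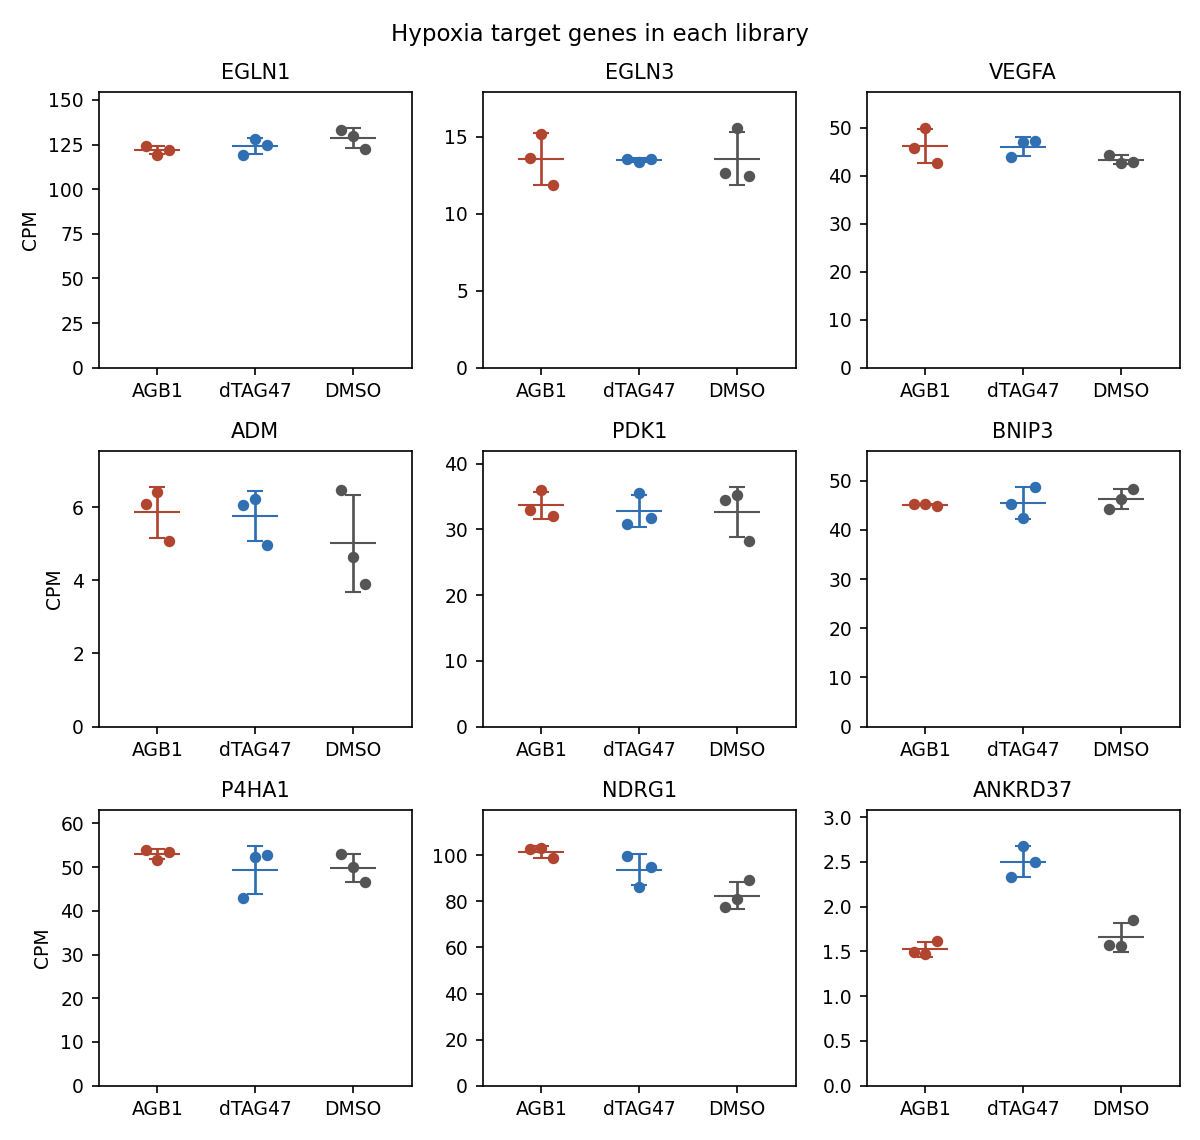
CPM of the 9 hypoxia targets that passed the count filter, in each library of the AGB1, dTAG47 and DMSO groups, with the y axis starting at 0. Points are libraries, the wide bar is the group mean and the whiskers are the SD (n = 3). NDRG1 in the AGB1 libraries (98.6 to 103 CPM) stands above DMSO (77.5 to 89.2 CPM), and ANKRD37 stands highest in the 3 dTAG47 libraries.

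The prolyl hydroxylases EGLN1 and EGLN3 mark HIF-alpha for VHL and are themselves HIF targets, which makes them a feedback readout. EGLN1, the main oxygen sensor of the family (ENSG00000135766, chr1:231363751-231425044 in GRCh38, minus strand), was at 124, 119 and 122 CPM with AGB1, 119, 128 and 125 CPM with dTAG47 and 133, 130.0 and 122 CPM in DMSO. The AGB1 libraries overlapped the lowest DMSO library. Its log2 fold change was −0.08 with AGB1 (SE 0.06, 95% interval −0.20 to 0.05) and −0.05 with dTAG47 (SE 0.06, −0.17 to 0.07). EGLN3, which responds strongly to hypoxia in many cell types (ENSG00000129521, chr14:33924231-34462774, minus strand), was at 13.6, 15.2 and 11.8 CPM with AGB1, 13.5, 13.4 and 13.6 CPM with dTAG47 and 12.7, 15.6 and 12.5 CPM in DMSO. All 3 groups overlapped, and the log2 fold changes were −0.00192 with AGB1 (−0.27 to 0.27) and −0.00749 with dTAG47 (−0.27 to 0.26). The upper end for EGLN3 with AGB1 corresponds to 1.20-fold.

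Among secreted HIF targets, VEGFA and ADM had higher means with both compounds than in the shared DMSO libraries and did not pass the test with either. VEGFA, the angiogenic growth factor (ENSG00000112715, chr6:43770184-43786487, plus strand), was at 45.9, 50.0003 and 42.8 CPM with AGB1, 43.9, 47.1 and 47.3 CPM with dTAG47 and 44.4, 42.8 and 42.9 CPM in DMSO. AGB1 2 was the highest library and AGB1 3 was level with the lowest of DMSO. The log2 fold change was 0.09 with AGB1 (SE 0.08, −0.08 to 0.26) and 0.09 with dTAG47 (SE 0.08, −0.08 to 0.26). ADM, which encodes the vasodilator peptide adrenomedullin (ENSG00000148926, chr11:10304680-10307397, plus strand), was at 6.09, 6.40 and 5.08 CPM with AGB1, 6.05, 6.23 and 4.97 CPM with dTAG47 and 6.47, 4.64 and 3.91 CPM in DMSO. The highest ADM library was DMSO 1. Its log2 fold changes were 0.23 with AGB1 (SE 0.20, −0.18 to 0.63) and 0.20 with dTAG47 (SE 0.20, −0.20 to 0.61), and neither interval left out 0. The AGB1 value ran from 0.0742 without DMSO 3 to 0.458 without DMSO 1, and the dTAG47 value from 0.0492 to 0.433 without the same libraries, so both sizes rest on single control libraries.

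The metabolic and mitochondrial targets PDK1 and BNIP3 lay close to DMSO, with log2 fold changes between −0.04 and 0.04. PDK1, pyruvate dehydrogenase kinase 1, which limits entry of pyruvate into the mitochondrial citric acid cycle (ENSG00000152256, chr2:172555373-172608669, plus strand), was at 33.0, 35.9 and 32.03 CPM with AGB1, 30.9, 35.5 and 31.8 CPM with dTAG47 and 34.4, 35.2 and 28.3 CPM in DMSO. DMSO 3 was the lowest library. Its log2 fold change was 0.04 with AGB1 (SE 0.10, −0.15 to 0.24) and 0.00625 with dTAG47 (−0.19 to 0.21). BNIP3, a mitochondrial outer membrane protein that promotes mitophagy (ENSG00000176171, chr10:131966455-131982013, minus strand), was at 45.2, 45.2 and 44.96 CPM with AGB1, 45.3, 42.4 and 48.7 CPM with dTAG47 and 44.3, 46.2 and 48.3 CPM in DMSO. The AGB1 libraries all lay inside the DMSO range. The log2 fold changes were −0.04 with AGB1 (SE 0.08, −0.20 to 0.13) and −0.03 with dTAG47 (SE 0.08, −0.19 to 0.14). Of the 75-base words of BNIP3's exons, 6.42% also occur in its pseudogene BNIP3P1.

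P4HA1, a catalytic subunit of the collagen prolyl 4-hydroxylase (ENSG00000122884, chr10:73007217-73096974, minus strand), was at 53.8, 51.7 and 53.4 CPM with AGB1, 43.0, 52.4 and 52.7 CPM with dTAG47 and 53.0, 50.05 and 46.5 CPM in DMSO. The lowest library was dTAG47 1, the one with the steepest GC trend. The log2 fold change was 0.09 with AGB1 (SE 0.08, −0.08 to 0.26) and −0.01 with dTAG47 (SE 0.08, −0.19 to 0.16). The dTAG47 value was 0.0185 with the GC trend removed and 0.124 without DMSO 1 and dTAG47 1, and so had no stable sign.

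NDRG1 was the member that stood furthest from DMSO in the AGB1 cells. It encodes a cytoplasmic protein that is induced in hypoxia and by other stresses and takes its name from repression by N-myc (ENSG00000104419, chr8:133237171-133302022, minus strand). NDRG1 was at 103, 103 and 98.6 CPM with AGB1, 99.9, 86.4 and 94.9 CPM with dTAG47 and 77.5, 80.9 and 89.2 CPM in DMSO. All AGB1 libraries were above all DMSO libraries, and dTAG47 2 lay below DMSO 3. The log2 fold change with AGB1 was 0.30 (SE 0.07, 0.16 to 0.44), or 1.23-fold, with an unadjusted p of 0.000201 in edgeR's test, the rank of 33 among 18319 genes, and an edgeR adjusted p of 0.110, which did not pass. With dTAG47 the log2 fold change was 0.18 (SE 0.07, 0.04 to 0.33, edgeR adjusted p = 0.554). Both compounds were set against the same DMSO libraries.

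The call for NDRG1 with AGB1 depended on the setting, and its sign did not. It passed in 5 of the 21 alternatives: DESeq2 (adjusted p = 0.0105), edgeR with no count filter (0.0149), edgeR with the GC trend removed (0.0312), the same with the replicate number as a block (0.0369) and edgeR without DMSO 3 (0.0180). Over all 21 the log2 fold change stayed between 0.256 and 0.357. Without DMSO 2 or AGB1 1, the edgeR adjusted p was 0.429 and 0.454. Within dTAG47 and DMSO, NDRG1 was highest in the library with the highest GC rho and lowest in the one with the lowest: among dTAG47 libraries it was highest in dTAG47 1 (rho 0.623) and lowest in dTAG47 2 (rho −0.329), and among DMSO libraries it was highest in DMSO 3 (rho 0.271) and lowest in DMSO 1 (rho −0.378). The AGB1 libraries did not follow that order, NDRG1 being lowest in AGB1 3, which had the highest rho of the 3 (0.0498). These orders rest on 3 libraries per group, and a link between NDRG1 and GC content was not tested. With the GC trend removed the log2 fold change of NDRG1 was 0.28 with AGB1 and 0.16 with dTAG47. Over the 21 alternatives the dTAG47 value ran from 0.0928, without DMSO 1 and dTAG47 1, to 0.240, without DMSO 3. The direct difference between AGB1 and dTAG47 was 0.12 (SE 0.07, −0.03 to 0.26, edgeR adjusted p = 0.999), so NDRG1 was not shown to differ between the VHL-recruiting and the CRBN-recruiting compound.

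**Figure D2:**
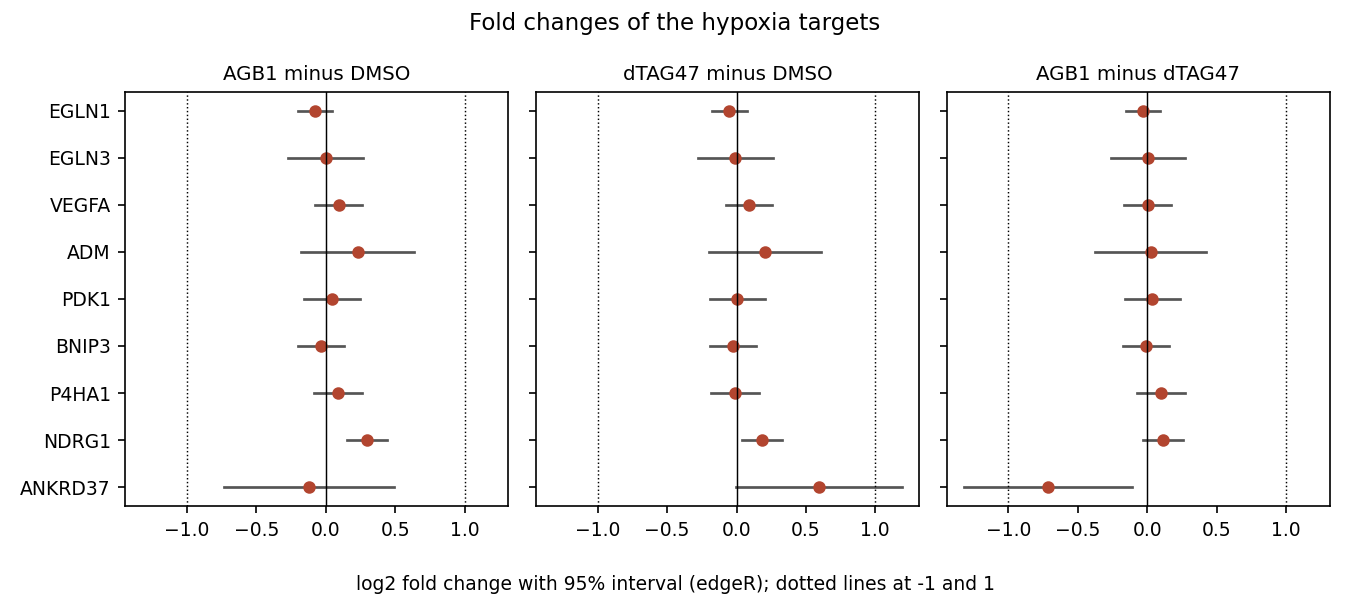
Log2 fold changes of the 9 tested hypoxia targets in the 3 comparisons, with 95% intervals from edgeR's fit to all 9 libraries. Points are estimates, lines are intervals, and dotted lines mark −1 and 1. In AGB1 minus DMSO the interval of NDRG1 (0.16 to 0.44) alone leaves out 0, and in AGB1 minus dTAG47 that of ANKRD37 (−1.32 to −0.11) alone does.

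With dTAG47, none of the 9 genes passed the threshold against DMSO in edgeR's test, against a background of 0.06% called, and DESeq2 called 0 of them, against 0.298% of the genes it tested. At an unadjusted p under 0.05 there was 1 of 9, NDRG1, against 7.28% of all genes. The median log2 fold change was 0.00625, against −0.000974 over all genes, with 5 positive and 4 negative. The upper end of the 95% interval reached a log2 fold change of 1 for 1 of the 9, ANKRD37, against 16.5% of all genes. The median standard error was 0.0845 for the 9 and 0.130 over all genes tested.

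ANKRD37, an ankyrin repeat protein whose messenger RNA is a sensitive marker of HIF-1 activity (ENSG00000186352, chr4:185396021-185400628, plus strand), was the member furthest from DMSO with dTAG47 and not with AGB1. It was at 1.49, 1.47 and 1.62 CPM with AGB1, 2.33, 2.68 and 2.499 CPM with dTAG47 and 1.57, 1.56 and 1.85 CPM in DMSO. The dTAG47 libraries lay above all 6 others, and AGB1 overlapped DMSO. The log2 fold change with dTAG47 was 0.59 (SE 0.29, −0.00667 to 1.19, edgeR adjusted p = 0.681). With AGB1 it was −0.12 (SE 0.30, −0.74 to 0.49, edgeR adjusted p = 0.960). These rest on 280 counts summed over the 3 dTAG47 libraries and 171 over the 3 of DMSO. The gene shares 35.2% of its exonic bases with UFSP2 on the opposite strand, and 61.1% of its 75-base words also occur in UFSP2. Since the strand setting of the counting is not given in the sources used here, its count is uncertain. UFSP2, a protease of the UFM1 pathway, was at 9.35, 12.4 and 13.3 CPM with dTAG47 and 9.89, 10.8 and 9.63 CPM in DMSO, with overlapping libraries. Its log2 fold change was 0.21 (SE 0.14, edgeR adjusted p = 0.804).

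Set directly against dTAG47, AGB1 gave no called gene among the 9 members, against 0% of all 18319 genes. DESeq2 also called 0 in all, and 736 genes (4.02%) had an unadjusted p under 0.05 in edgeR's test, ANKRD37 being the 1 member among them. The median log2 fold change was 0.00557, with 6 positive and 3 negative. ANKRD37 had a log2 fold change of −0.71 (SE 0.30, −1.32 to −0.11), an unadjusted p of 0.0221 in edgeR's test and an edgeR adjusted p of 0.999, and so did not pass. It was lower with AGB1 in all pairs of libraries, and over the 21 alternatives the value ran from −0.765 to −0.661 with 0 calls. The intervals of the other 8 all held 0 and reached at most 0.43 (ADM). For VEGFA the interval was −0.16 to 0.17, for BNIP3 −0.17 to 0.16, for EGLN1 −0.15 to 0.10, for EGLN3 −0.26 to 0.27, for PDK1 −0.16 to 0.24 and for P4HA1 −0.07 to 0.28.

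Libraries of the groups compared failed to overlap for 1 of the 9 members in each comparison. These were NDRG1 (higher) for AGB1 against DMSO, ANKRD37 (higher) for dTAG47 against DMSO and ANKRD37 (lower) for AGB1 against dTAG47. Over all genes tested, libraries failed to overlap for 13.3% with AGB1 against DMSO (6.57% higher, 6.75% lower), 11.6% with dTAG47 against DMSO (5.8% higher, 5.82% lower) and 10.5% with AGB1 against dTAG47 (5.11% higher, 5.34% lower). The members' counts were near this background.

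**Figure D3:**
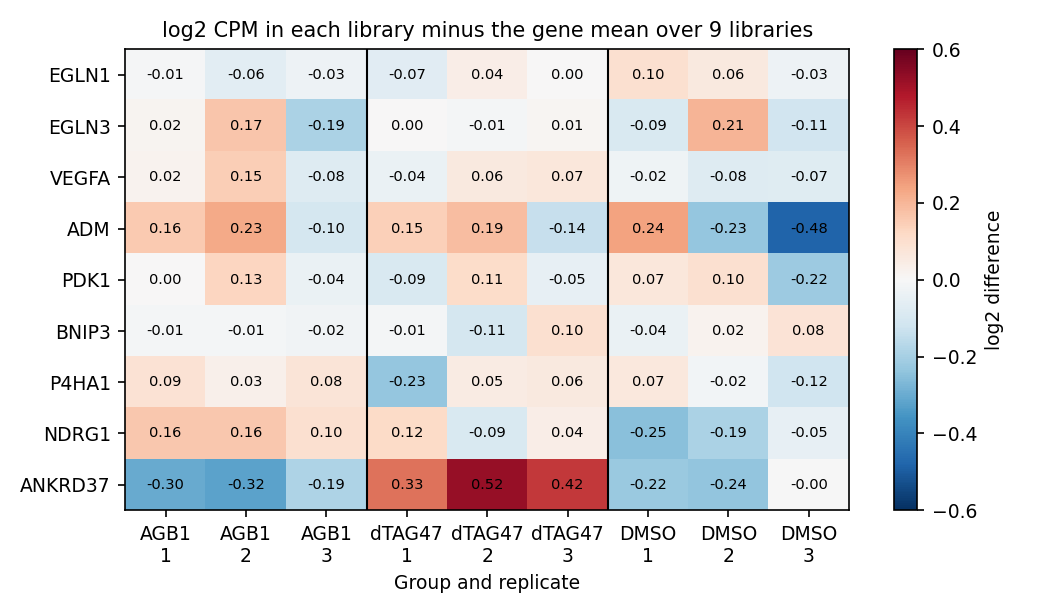
Log2 CPM of each hypoxia target in each library minus its mean over the 9 libraries, by group and replicate, on a scale from −0.6 (blue) to 0.6 (red). ANKRD37 is red in all 3 dTAG47 libraries (0.33 to 0.52), NDRG1 is pale red in all 3 AGB1 libraries (0.10 to 0.16), and no column is red or blue throughout.

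In DMSO 3, 8 of the 9 members lay below their means, with BNIP3 the exception, and every other library also held members on both sides. The median deviation of the 9 genes from their own means, on the log2 scale, was 0.02, 0.13 and −0.04 in the AGB1 libraries, −0.01, 0.05 and 0.04 in the dTAG47 libraries and −0.02, −0.02 and −0.07 in the DMSO libraries. AGB1 2 was the highest, and the groups overlapped. As a description over the 9 libraries, where all genes of a library share its depth and GC trend, Pearson's r between pairs of members ran from −0.885 (NDRG1 and EGLN1) to 0.642 (ADM and PDK1). Among 10837 protein-coding genes averaging 5 CPM or more, the one most like NDRG1 in log2 CPM over the 9 libraries was TUBB4B (Pearson's r = 0.976), and for EGLN1 it was KIF5B (0.964). For the other members these were LIMS1 for VEGFA (0.953), DMAP1 for BNIP3 (0.947), ANO10 for ADM (0.959), FEM1B for PDK1 (0.948), MTAP for P4HA1 (0.973), ZNF782 for EGLN3 (0.954) and ELOVL1 for ANKRD37 (0.901). None of these genes is in the lists of HIF targets used here.

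The proteins that build and read the HIF signal were tested next to their targets. Of 15 such genes 14 were tested, HIF3A having no count in any library, and none passed in edgeR's test with either compound. VHL itself, the receptor that AGB1 recruits, was at 177, 179 and 179 CPM with AGB1, 177, 177 and 172 CPM with dTAG47 and 181, 171 and 173 CPM in DMSO. The VHL libraries of the 3 groups overlapped, and the log2 fold change with AGB1 was 0.03 (SE 0.05, −0.09 to 0.14). HIF1A, the oxygen-regulated subunit, was at 120.4, 121 and 126.1 CPM with AGB1, 112, 129 and 131 CPM with dTAG47 and 147, 138 and 126.2 CPM in DMSO. AGB1 3 lay just below DMSO 3, and dTAG47 overlapped DMSO. The log2 fold change of HIF1A was −0.16 with AGB1 (SE 0.07, edgeR adjusted p = 0.537) and −0.15 with dTAG47 (SE 0.07, edgeR adjusted p = 0.669). HIF protein is set mainly by degradation, so this message does not report its amount.

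At an unadjusted p under 0.05 in edgeR's test there were 3 of the 14 with each compound against DMSO. The backgrounds were 7.76% with AGB1 and 7.28% with dTAG47. HIF1A, ARNT2 and CITED2 were the 3 in both, and both comparisons used the same DMSO libraries. Their recurrence is therefore not a separate observation. ARNT2, a relative of ARNT, had a log2 fold change of 0.17 with AGB1 (SE 0.08, edgeR adjusted p = 0.598) and 0.21 with dTAG47 (SE 0.08). CITED2, a HIF target that competes with HIF for the coactivators EP300 and CREBBP, had −0.21 with AGB1 (SE 0.09, edgeR adjusted p = 0.552) and −0.24 with dTAG47 (SE 0.09). EPAS1, ARNT, HIF1AN and EGLN2 had intervals that held 0 in both comparisons. The log2 fold change of EPAS1, which encodes HIF-2 alpha, was −0.09 with AGB1 (SE 0.12) and −0.15 with dTAG47 (SE 0.12). For ARNT, the partner of HIF-alpha, it was 0.03 with AGB1 (SE 0.07) and 0.09 with dTAG47 (SE 0.07). For HIF1AN, the asparaginyl hydroxylase that blocks HIF transactivation, it was 0.11 with AGB1 (SE 0.06) and 0.08 with dTAG47 (SE 0.06). For EGLN2, the remaining prolyl hydroxylase, it was −0.20 with AGB1 (SE 0.24) and −0.17 with dTAG47 (SE 0.23), at a low level of 3.20 ± 0.610 CPM with AGB1 (SD, n = 3). EGLN2 shares 30.6% of its exonic bases with other genes on its strand, among them the readthrough gene RAB4B-EGLN2, which had no count, so its level is uncertain. Over the 14 genes the median was −0.04 with AGB1 and −0.04 with dTAG47.

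A wider set of HIF targets outside the 10 named genes also held no gene past the threshold in edgeR's test. DESeq2 called STC2 with AGB1 against DMSO (DESeq2 adjusted p = 0.00589), against 0.606% of all the genes it tested. Of 21 genes of glucose uptake, glycolysis and glycogen, none passed with AGB1 against DMSO in edgeR's test, 16 had a positive log2 fold change and the median was 0.06, against 49.7% positive among all genes. At an unadjusted p under 0.05 in edgeR's test there were 4 of the 21 (GBE1, TPI1, PFKFB4 and GAPDH), against 7.76% of all genes. Without overlap between libraries, 4 of the 21 were higher, against 6.57%, and 1 was lower (GYS1), against 6.75%. With dTAG47, 2 of the 21 had an unadjusted p under 0.05 in edgeR's test, against 7.28% of all genes. There, 3 were higher without overlap, against 5.8%, and 0 lower, against 5.82%. Also with dTAG47, 14 of the 21 were positive and the median was 0.03, with 0 past the threshold. GBE1, the glycogen branching enzyme, was at 33.3, 33.3 and 32.1 CPM with AGB1, 32.7, 33.3 and 35.8 CPM with dTAG47 and 29.4, 25.1 and 30.1 CPM in DMSO. GBE1 libraries of both compounds lay above the DMSO libraries, which both comparisons share. The log2 fold changes of GBE1 were 0.22 (SE 0.09, edgeR adjusted p = 0.545) with AGB1 and 0.27 (SE 0.09, edgeR adjusted p = 0.463) with dTAG47. TPI1, triosephosphate isomerase, had 0.11 with AGB1 (SE 0.04), and HK1, hexokinase 1, had 0.14 with dTAG47 (SE 0.06). TPI1 shares 12.5% of its 75-base words with its pseudogene TPI1P1, so its count carries that uncertainty. GAPDH shares 17% of its words with AC006064.4 and the pseudogenes GAPDHP1 and GAPDHP65. It also shares 14.2% of its exonic bases with AC006064.4 on the opposite strand, so the GAPDH count is uncertain too. ALDOA had the highest value of the 21 with AGB1 against DMSO, 0.40 (SE 0.21), and was among those higher without overlap. It shares 48.7% of its words with AC093512.2 and 42.3% of its exonic bases with other genes on its strand. The ALDOA count is therefore also uncertain. Between AGB1 and dTAG47 the smallest p-values of the 21 were those of GAPDH, at 0.10 (SE 0.04), and of the glucose transporter SLC2A1, at −0.15 (SE 0.08), both at an edgeR adjusted p of 0.999.

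Of 36 other HIF targets 35 were tested and none passed in any of the 3 comparisons in edgeR's test. With AGB1 against DMSO, 18 were positive and 17 negative, with a median of 0.00376. Of the 35, 2 had an unadjusted p under 0.05 in edgeR's test (STC2 and KDM3A), against 7.76% of all genes. Without overlap between libraries, 2 were higher, against 6.57%, and 2 lower, against 6.75%. With dTAG47, 21 were positive and 14 negative, with a median of 0.04. There, 3 of the 35 had an unadjusted p under 0.05 in edgeR's test, against 7.28% of all genes. Without overlap, 6 were higher, against 5.8%, and 0 lower, against 5.82%. STC2, a secreted glycoprotein also induced by other stresses, was at 167, 181 and 181 CPM with AGB1, 167, 167 and 155 CPM with dTAG47 and 154, 146 and 147 CPM in DMSO. STC2 libraries of both compounds lay above the DMSO libraries, which both comparisons share. The log2 difference was 0.24 with AGB1 (SE 0.06, edgeR adjusted p = 0.115, DESeq2 adjusted p = 0.00589) and 0.13 with dTAG47 (SE 0.06). KDM3A, a HIF-induced histone demethylase, lay in the opposite direction, at −0.19 with AGB1 against DMSO (SE 0.07, edgeR adjusted p = 0.477) and −0.18 against dTAG47 (SE 0.07).

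BHLHE40, a hypoxia-induced transcriptional repressor, had levels that went with those of ANKRD37. BHLHE40 was at 22.5, 24.3 and 24.4 CPM with AGB1, 30.3, 28.9 and 27.2 CPM with dTAG47 and 23.2, 22.2 and 24.5 CPM in DMSO. Its dTAG47 libraries were above all others, 0.31 against DMSO on the log2 scale (SE 0.10, edgeR adjusted p = 0.384), while AGB1 against dTAG47 gave −0.28 (SE 0.10, edgeR adjusted p = 0.999). Over the 9 libraries its Pearson's r with ANKRD37 was 0.896, the third highest of the 10837 genes compared. BHLHE40 was named for its small p-values in edgeR's test in the comparisons with dTAG47, where ANKRD37 also stood out. A high r was favoured by that choice and is a description only, and the ANKRD37 count is uncertain. CA12, another membrane carbonic anhydrase, had 0.44 with dTAG47 against DMSO (SE 0.19, edgeR adjusted p = 0.619). With AGB1 against DMSO, CA12 had 0.35 (SE 0.19, edgeR adjusted p = 0.688), and AGB1 against dTAG47 gave −0.10 (SE 0.19). Its value was thus positive with both compounds, unlike that of ANKRD37.

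**Figure D4:**
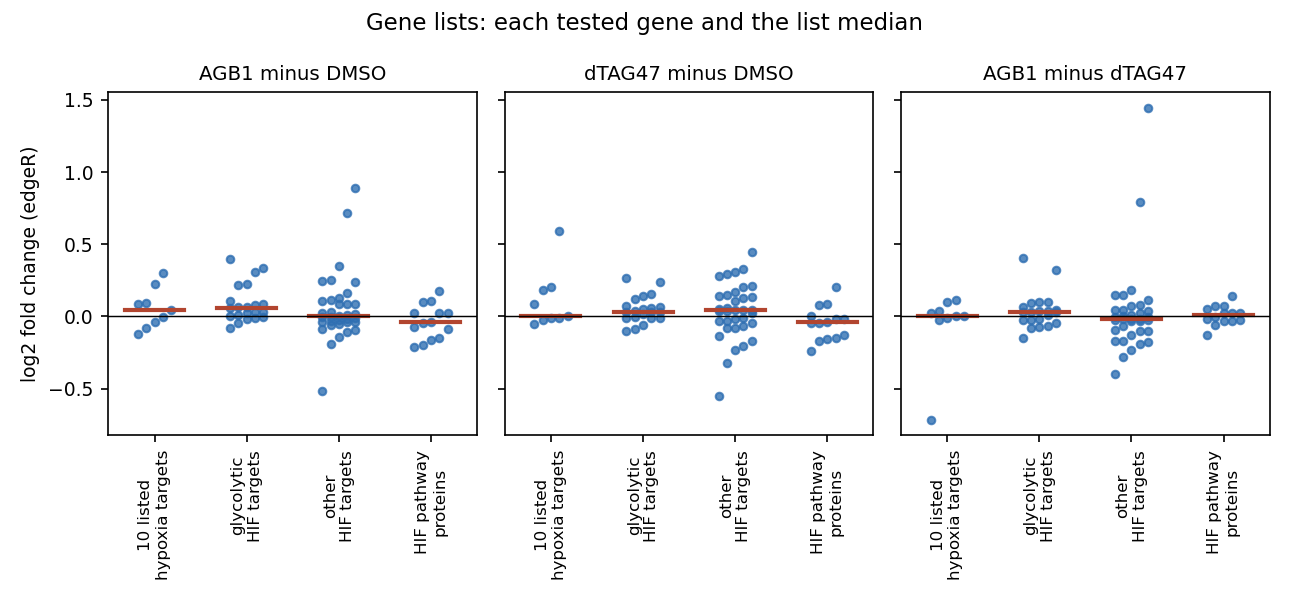
Log2 fold changes of every tested gene of the 10 listed hypoxia targets, the glycolytic HIF targets, the other HIF targets and the HIF pathway proteins, in the 3 comparisons. Points are genes and the red bar is the list median, which lies between −0.04 and 0.06 in every panel. The isolated high point among other HIF targets in AGB1 minus dTAG47 is ANGPTL4 at 1.45, with an interval of −0.25 to 3.15 and levels of at most 1.18 CPM.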

How the data were processed

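The deposited files hold whole-number read counts per Ensembl gene for 9 poly(A)-selected libraries, 1 file each, with no scaling. HISAT2, DESeq2 and hg38 are named in the submitters' processing notes. Their versions, the counter and whether it used strand were not given in the sources used here. Groups and replicate numbers come from the sample titles. The 10 genes, the lists and the tests were chosen with earlier results of these data known. Counts were fitted with edgeR 4.0.16 (R 4.3.3; filterByExpr by group, TMM, 1 quasi-likelihood model of all 9 libraries), with Benjamini-Hochberg adjustment over 18319 genes and a threshold of 0.05. Standard errors are log2 fold changes over the square root of F, and intervals use the t quantile at the moderated degrees of freedom. RPKM divides CPM by the deposited gene length. Named beyond the 10 genes were 6 HIF regulators and, per list of wider targets, the 2 smallest p-values in each comparison; others were named after their values were seen. Alternatives used DESeq2 1.42.0, limma 3.58.1 (voom), other scalings and filters, removal of the GC trend (lowess, span 0.3, on GENCODE 29 transcripts) and omission of libraries. The fit was tested on simulated counts that had the same dispersion for every gene and no GC trend. That test does not show how the fit performs with the GC trends of these libraries. The intervals come from the quasi-likelihood fit and so include library-to-library spread. No limits for counting error alone are given, and reads carry no molecular identifiers.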

Additional observations from a re-analysis of the deposited data

How the results depend on the processing

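The number of hypoxia targets called was 0 in each comparison and 1 (NDRG1, AGB1 against DMSO) with DESeq2, no count filter, the GC trend removed and the GC trend removed with the replicate block; leaving out 1 library gave 0 to 1 there and 0 elsewhere. Genes called in all were more variable. For AGB1 against DMSO the main count was 19, with 76 by DESeq2, 67 with no count filter, 48 with the GC trend removed, 51 with the GC trend removed and the replicate block, 29 with DMSO 1 and dTAG47 1 both left out (chosen after seeing the data) and 6 to 55 without 1 library. For dTAG47 against DMSO it was 11, with 45 by DESeq2, 43 with no count filter, 22 with the GC trend removed, 4 with only the 2 groups compared, 6 with both libraries left out and 2 to 20 without 1 library. For AGB1 against dTAG47 it was 0, with 13 with no count filter, 2 with both libraries left out and 0 to 2 without 1 library. The replicate block alone gave 17, 10 and 0 genes in the same order and changed no call of a member; same-numbered libraries had correlations of deviations from −0.156 to 0.0717, so the numbers are not taken to pair them. The median over the members ran from −0.00507 to 0.0907 (AGB1 against DMSO), 0.00319 to 0.0768 (dTAG47 against DMSO) and −0.0127 to 0.0733 (AGB1 against dTAG47) without 1 library, and was 0.0928 for dTAG47 against DMSO with both libraries left out.

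Members whose main value was near 0 changed sign in some settings without passing the threshold, and the cause was not tested. For AGB1 against DMSO, EGLN3 was 0.000353 with limma-voom and −0.0887 to 0.106 without 1 library, and PDK1 −0.0510 to 0.101 without 1 library. For dTAG47 against DMSO, EGLN3 was 0.00366 with limma-voom and −0.0671 to 0.1001 without 1 library, PDK1 −0.00539 with upper-quartile factors and −0.0900 to 0.0619 without 1 library, P4HA1 0.0185 and 0.0175 with the GC trend removed without and with the block, 0.124 with both libraries left out and −0.0622 to 0.0756 without 1 library, BNIP3 −0.0807 to 0.0201 without 1 library, and EGLN1 0.00745 with both libraries left out. For AGB1 against dTAG47, VEGFA was −0.00221 with limma-voom, −0.00548 on library sizes alone, −0.00145 with no count filter, −0.0331 with both libraries left out and −0.0556 to 0.0559 without 1 library; EGLN3 was −0.00331 with limma-voom, −0.00266 on library sizes alone, −0.00140 with the GC trend removed and the block, and −0.0799 to 0.0937 without 1 library; BNIP3 was 0.000347 with limma-voom and −0.0574 to 0.0467 without 1 library; PDK1 was −0.00369 with both libraries left out and −0.00967 to 0.103 without 1 library; ADM was −0.0654 to 0.117 without 1 library. Depth limits ANKRD37 most, whose standard error was 0.29 to 0.30, and CA9 could not be fitted.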
